A study of Mus musculus with 10 samples.

Results

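The *Gadd45* family of the mouse consists of *Gadd45a*, *Gadd45b* and *Gadd45g*, and their RNA was measured by RNA-Seq in 5 control and 5 MI-883-treated livers. The members were chosen by gene symbol, and all 3 were found among the 16647 genes of the count table and among the 13219 genes tested. The livers came from male mice humanized for PXR, CAR, CYP3A4 and CYP3A7, which were 10 to 15 weeks old when a high-fat diet (HFD) began. After 8 weeks of HFD, the mice were gavaged 3 times per week over 4 weeks with 5 mg/kg MI-883, or the vehicle (DMSO, PEG300 and corn oil) alone, while the diet continued. MI-883 is a small molecule that the study describes as an agonist of the human constitutive androstane receptor (CAR) and an antagonist of the human pregnane X receptor (PXR). Both groups carried the humanized loci and received HFD, so that no group without either was compared. The labels number 5 livers per group, and the study states that each came from a separate animal, assigned to its group at random. The tests between groups set the difference between the groups against the spread between these livers.

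Gadd45 proteins are small, acidic proteins without enzyme activity of their own that act by binding other proteins. They bind the kinase Map3k4 upstream of p38 and JNK, the cell cycle proteins Pcna, p21 and the Cdk1 and cyclin B complex, and they take part in DNA repair and DNA demethylation. The 3 genes differ mainly in what induces them. *Gadd45a* is a classical target of p53 after DNA damage, *Gadd45b* is an early response gene of NF-kB and TGF-beta, and *Gadd45g* was first known as a gene induced by cytokines. In the mouse liver, *Gadd45b* is known as a gene that rises early after CAR activation or partial hepatectomy, and its protein can bind CAR and the JNK kinase Map2k7.

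The genes lie on different chromosomes, and their promoters are shown because the 3 genes responded to the treatment in 3 different ways. Each sequence runs 5′ to 3′ on the strand of the gene, from 250 bases before to 50 bases after the RefSeq start in GRCm38. Capitals mark matches, on either strand, to CCAAT (the CCAAT box), TATAAA (the TATA box), ATTTGCAT (the octamer), CACGTG (an E-box) and GGGCGG (the GC box). The *Gadd45a* promoter lies at chr6:67037358-67037657 on the minus strand, that of *Gadd45b* at chr10:80929841-80930140 on the plus strand and that of *Gadd45g* at chr13:51846425-51846724 on the plus strand.
Gadd45a: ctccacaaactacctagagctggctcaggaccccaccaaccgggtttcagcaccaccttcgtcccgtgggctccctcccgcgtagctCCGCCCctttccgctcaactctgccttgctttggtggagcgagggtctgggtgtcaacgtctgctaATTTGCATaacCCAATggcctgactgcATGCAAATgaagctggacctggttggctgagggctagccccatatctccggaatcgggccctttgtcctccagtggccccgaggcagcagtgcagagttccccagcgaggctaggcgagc
Gadd45b: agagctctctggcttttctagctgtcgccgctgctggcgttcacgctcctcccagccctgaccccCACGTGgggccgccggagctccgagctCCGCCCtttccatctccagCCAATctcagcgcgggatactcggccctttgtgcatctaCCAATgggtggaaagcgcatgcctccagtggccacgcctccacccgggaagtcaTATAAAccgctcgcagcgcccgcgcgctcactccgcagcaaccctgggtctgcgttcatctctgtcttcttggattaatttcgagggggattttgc
Gadd45g: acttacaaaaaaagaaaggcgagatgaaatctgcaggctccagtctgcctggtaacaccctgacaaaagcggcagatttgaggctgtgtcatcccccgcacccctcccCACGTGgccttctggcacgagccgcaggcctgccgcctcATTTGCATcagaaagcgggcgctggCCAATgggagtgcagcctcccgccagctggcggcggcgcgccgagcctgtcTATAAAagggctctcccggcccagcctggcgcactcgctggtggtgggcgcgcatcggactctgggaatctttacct

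A CCAAT box was found in all 3 promoters, with 1 match in *Gadd45a*, 2 in *Gadd45b* and 1 in *Gadd45g*, and in 37.4% of the 32851 promoters of this length in the reference. The octamer was found in *Gadd45a*, once on each strand at 97 and 70 bases before the start, and in *Gadd45g* at 103 bases before the start, but not in *Gadd45b*. It was present in 1.74% of all promoters. The TATA box and the E-box were found in *Gadd45b* and *Gadd45g* but not in *Gadd45a*, against 13.6% and 7.15% of all promoters. The TATA box began 46 bases before the start in *Gadd45b* and 27 bases before it in *Gadd45g*. The GC box was found in *Gadd45a* and *Gadd45b* and in 35.7% of all promoters. The nuclear receptor half-sites AGGTCA (16.3% of all promoters) and AGTTCA (14.0%) and the AP-1 site TGACTCA (5.20%) were searched on both strands and not found in any of the 3 windows. The windows are short, and the known CAR-responsive enhancer of *Cyp2b10* lies outside a window of this length, so that the absence of these letters says nothing about the factors.

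Between 23513665 and 36221514 reads per liver were counted on genes. Levels are given as CPM, counts scaled to a common library size after TMM normalization, with the S.D. over 5 livers. Groups were compared with the quasi-likelihood test of edgeR and Benjamini-Hochberg adjustment over all 13219 tested genes, and a gene was called at an adjusted P under 0.05. Of these genes, 1.03% were called, 0.764% higher and 0.265% lower in MI-883-treated livers. The markers of hepatocytes, such as *Alb* and *Ttr*, summed to between 78902 and 90917 CPM in control and between 67489 and 79912 CPM in MI-883-treated livers. The hepatocyte markers were thus abundant in every liver. None of the 8 hepatocyte markers was called, but 7 of them had a negative log2 fold change (median -0.21). The 5 bile duct markers were not called either, and all 5 had a positive one (median 0.55), with sums of 25.0 to 117 CPM in control and 35.1 to 190 CPM in treated livers. No tested marker of macrophages, lymphocytes, neutrophils, endothelium or stellate cells was called by edgeR. Positive log2 fold changes were found in 6 of 7 stellate (median 0.23), 5 of 6 endothelial (0.24) and 6 of 8 macrophage markers (0.07). They were found in 2 of 7 lymphocyte (median -0.30) and 1 of 2 tested neutrophil markers (-0.11). DESeq2 called *Apoa1* of hepatocytes lower and *Cdh5* of endothelium higher. The part of cell makeup in the results that follow was not tested. In whole liver, fewer cells of a type and less RNA per cell cannot be told apart.

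The 3 genes took 3 courses after treatment with MI-883. *Gadd45b* was 5.81-fold higher, *Gadd45g* was 2.46-fold lower, and *Gadd45a* differed by less than the spread between livers. *Gadd45b* and *Gadd45g* were called, 1 upward and 1 downward, and in both the groups did not overlap, which was the case for 3.98% of all tested genes. The family was proposed with these opposite directions known, so that the count of 2 of 3 is a description.

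*Gadd45b* (Entrez 17873) lies on chromosome 10 from 80930091 to 80932204 and had levels of 2.63, 5.25, 2.21, 2.95 and 3.55 CPM in control replicates 1 to 5. In MI-883-treated replicates 1 to 5 it was measured at 14.4, 30.0, 11.2, 25.3 and 16.1 CPM. The groups did not overlap, with all treated livers higher, and the treated livers of replicates 2 and 4 were the highest. The mean rose from 3.32 ± 1.19 to 19.4 ± 7.93 CPM. On the log2 scale the fold change was 2.54 with a 95% interval of 1.91 to 3.17 (standard error 0.291, edgeR adjusted P = 0.000759). This increase ranked 22 among the 13219 tested genes. An exact permutation test (two-sided) on log2 CPM gave P = 0.00794, the smallest it can give with 5 livers against 5. Leaving out single livers gave log2 fold changes from 2.33 to 2.78, and *Gadd45b* was called in all 10 of these fits. The values rest on 54 to 168 counts per control liver and 302 to 679 counts per treated liver. A filter of 60 counts in every liver, another reading of the study's own filter, would remove *Gadd45b*. The control liver of replicate 3 had 54 counts.

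*Gadd45g* (Entrez 23882) lies on chromosome 13 from 51846675 to 51848475 and had levels of 32.1, 38.2, 21.8, 20.01 and 18.3 CPM in control replicates 1 to 5. In MI-883-treated replicates 1 to 5 it was measured at 8.44, 15.8, 9.36, 12.4 and 7.52 CPM. The groups did not overlap, with all treated livers lower, and the control livers of replicates 1 and 2 stood above the other control livers. The mean fell from 26.1 ± 8.64 to 10.7 ± 3.39 CPM. On the log2 scale the fold change was -1.30 with a 95% interval of -1.80 to -0.79 (standard error 0.235, edgeR adjusted P = 0.0198). Only 8 of the 13219 tested genes had a lower fitted log2 fold change, and its rank from the lowest was 9. The exact permutation test gave the same P of 0.00794. Leaving out single livers, *Gadd45g* was called in 8 of 10 fits. Without MI-883 replicate 3 the log2 fold change was -1.25 with an adjusted P of 0.0557, and without MI-883 replicate 5 it was -1.19 with an adjusted P of 0.0627 (edgeR).

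*Gadd45a* (Entrez 13197) lies on chromosome 6 from 67035096 to 67037407 and had levels of 19.9, 7.87, 8.91, 19.7 and 15.3 CPM in control replicates 1 to 5. In MI-883-treated replicates 1 to 5 it was measured at 11.4, 15.001, 9.74, 20.1 and 13.6 CPM. The groups overlapped, with the lowest value in control replicate 2 and the highest in MI-883 replicate 4. The means were 14.3 ± 5.74 and 14.0 ± 3.97 CPM. On the log2 scale the fold change was -0.05 (standard error 0.264, edgeR adjusted P = 0.951; exact permutation test, P = 0.968). The 95% interval ran from -0.62 to 0.52, and changes within it are not excluded by these livers. An antisense RNA gene, E230016M11Rik, overlaps *Gadd45a*, and since the strand setting of the counting is not given in the sources used here, its reads and those of *Gadd45a* cannot be told apart. No annotated gene overlaps *Gadd45b* or *Gadd45g*, and none of the 100-base stretches of the transcripts of the 3 genes occurs in a transcript of another gene.

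**Figure D1:**
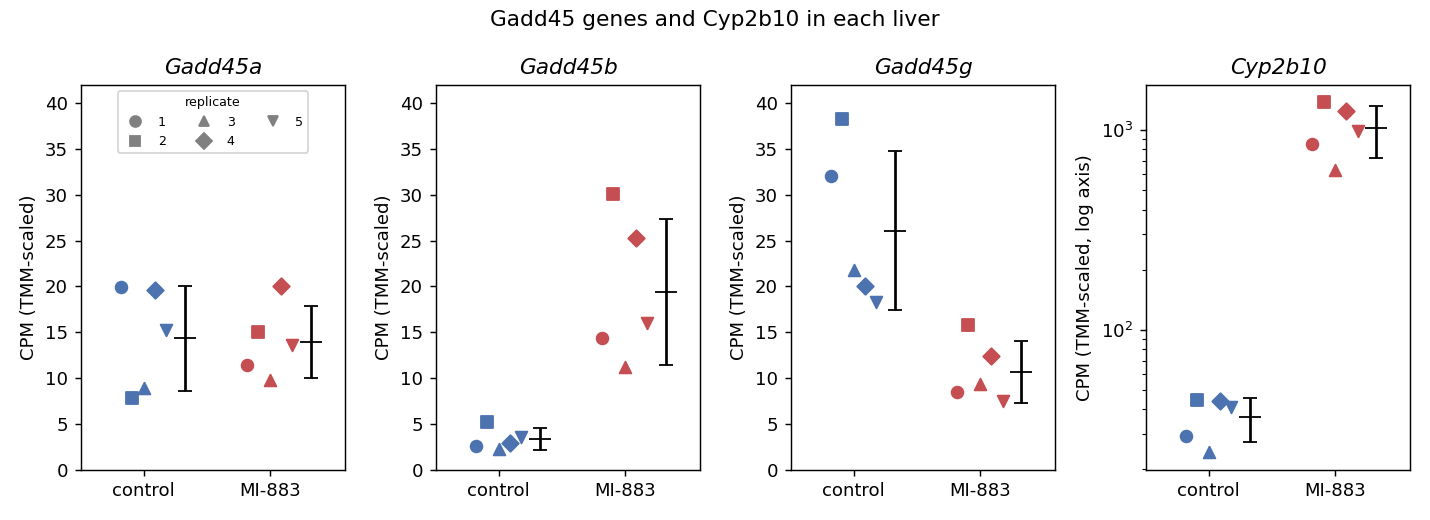
CPM of *Gadd45a*, *Gadd45b*, *Gadd45g* and *Cyp2b10* in each liver (points, shape by replicate number; the axis of *Cyp2b10* is logarithmic), with the group mean and S.D. as black bars (n = 5). The MI-883-treated livers lie between 11.2 and 30.0 CPM for *Gadd45b*, above all control livers, between 7.52 and 15.8 CPM for *Gadd45g*, below all control livers, and among the control livers for *Gadd45a*.

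The levels of different genes were compared per kilobase of merged exons, which gave lengths of 1764 bases for *Gadd45a*, 1589 for *Gadd45b* and 1173 for *Gadd45g*. These lengths come from the GENCODE M21 annotation, whereas the annotation used for counting is not given. Other lengths would change the levels, order and shares per kilobase. In control livers the level per kilobase was 22.2 ± 7.37 for *Gadd45g*, 8.12 ± 3.25 for *Gadd45a* and 2.09 ± 0.747 for *Gadd45b*, in units of CPM per kilobase. This order held in all 5 control livers. In MI-883-treated livers the level per kilobase was 12.2 ± 4.99 for *Gadd45b*, 9.13 ± 2.89 for *Gadd45g* and 7.91 ± 2.25 for *Gadd45a*. The order of *Gadd45g* and *Gadd45a* differed between treated livers, and the means of neighbours in it were apart by less than the larger of their S.D. *Gadd45b* was the highest of the 3 in all treated livers except replicate 3, in which *Gadd45g* was.

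The sum of the 3 genes per kilobase lay between 25.0 and 40.4 in control and between 20.5 and 40.9 in MI-883-treated livers, and the groups overlapped. Within this sum, *Gadd45b* made up between 4.10% and 8.43% in control and between 34.3% and 46.3% in treated livers. *Gadd45g* made up between 56.7% and 80.8% in control and between 26.5% and 38.9% in treated livers. The share of *Gadd45a* lay between 11.1% and 37.1% in control and between 20.8% and 31.8% in treated livers. The make-up thus turned from *Gadd45g* towards *Gadd45b* in every treated liver, while the summed level was below the range of the controls in replicates 1, 3 and 5, within it in replicate 4 and above it in replicate 2.

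The ratio of *Gadd45b* to *Gadd45g* in the same liver does not depend on the scaling of that library. The log2 ratio was -3.61, -2.87, -3.31, -2.76 and -2.37 in control replicates 1 to 5 and 0.77, 0.93, 0.26, 1.03 and 1.10 in MI-883-treated replicates 1 to 5. It was negative in every control and positive in every treated liver, and its mean differed by 3.80 (S.D. 0.484 in control and 0.336 in treated livers). The ratios in this paragraph are of CPM not divided by length, so that their sign does not give the order per kilobase. In MI-883-treated replicate 3, *Gadd45g* was above *Gadd45b* per kilobase (7.98 against 7.035). The log2 ratio of *Gadd45b* to *Gadd45a* lay between -2.92 and -0.58 in control and between 0.20 and 1.0 in treated livers, without overlap. The log2 ratio of *Gadd45g* to *Gadd45a* lay between 0.03 and 2.28 in control and between -0.85 and 0.07 in treated livers, and here the groups overlapped. No test was made of these ratios, since the opposite changes were known when the genes were chosen.

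**Figure D2:**
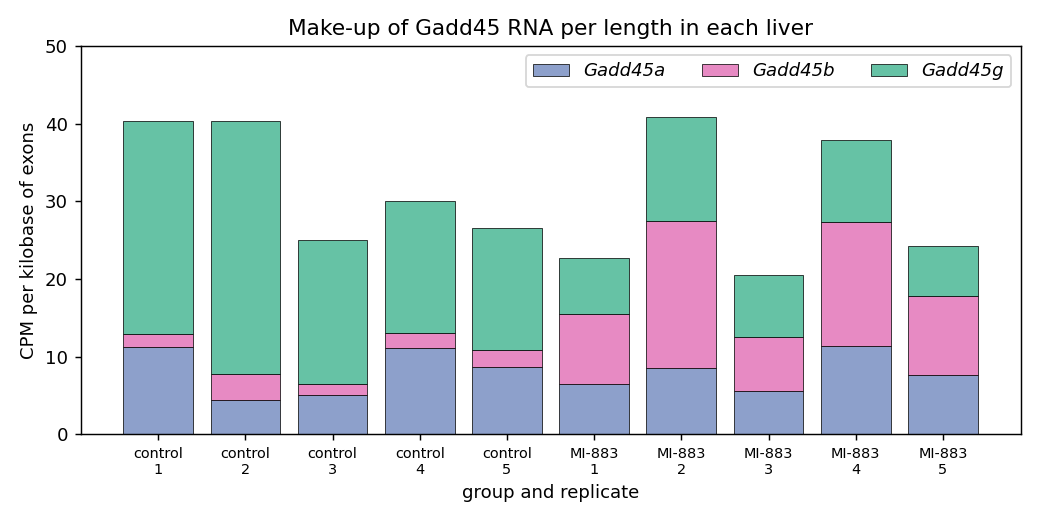
Stacked level of the 3 *Gadd45* genes in CPM per kilobase of exons in each of the 10 livers. *Gadd45b* takes at most 8.43% of the bar in control livers and at least 34.3% in MI-883-treated livers.

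*Cyp2b10* encodes a cytochrome P450 and is the classical CAR target gene of the mouse liver, against which the *Gadd45* genes were set liver by liver. It was measured at 29.2, 44.3, 24.4, 43.8 and 40.8 CPM in control replicates 1 to 5 and at 851, 1375, 634, 1249 and 989 CPM in MI-883-treated replicates 1 to 5. The groups thus formed separate clusters, and no correlation over the pooled livers was computed. Each group alone is too small for one. The log2 CPM of each liver was therefore taken as its deviation from its group mean, over both groups together. Deviations within a group sum to 0, so that the 10 livers are not fully independent points.

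*Gadd45b* followed *Cyp2b10* from liver to liver, while *Gadd45a* and *Gadd45g* gave no relation that passed the test. For *Gadd45b*, Pearson's r was 0.90 and Spearman's rho 0.96 over 10 livers, with P of 0.00149 and 0.00025 from two-sided permutation tests within groups (0.00447 and 0.00075 after Benjamini-Hochberg adjustment over the 3 relations). The relations to *Cyp2b10* were chosen with earlier results of these data known, so that these P values are a description. Without the livers farthest from the median of *Cyp2b10*, replicate 3 of each group, r was 0.84. With each liver left out in turn, r stayed between 0.86 and 0.97. Among MI-883-treated livers both genes had the same order, with replicate 2 highest and replicates 4, 5, 1 and 3 following. Among control livers *Cyp2b10* had that same order too, and *Gadd45b* differed from it by the exchange of replicates 4 and 5. The permutations treated the groups as independent. A factor shared by equal replicate numbers, which was not tested, would leave fewer independent points than 10.

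For *Gadd45a*, r was 0.42 and rho 0.27 (permutation tests, P = 0.233 and 0.422, adjusted 0.327 and 0.422). Without replicate 3 of each group, its r was -0.03. With only 1 liver left out, r of *Gadd45a* depended on which one. It was 0.75 without control replicate 2 (permutation test, adjusted P = 0.0411), 0.25 without control replicate 3 and 0.27 without MI-883 replicate 3. For *Gadd45g*, r was 0.37 and rho 0.32 (permutation tests, P = 0.327 and 0.413, adjusted 0.327 and 0.422), and without replicate 3 of each group r was 0.33. The difference between the relations was not tested.

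Among the treated livers, but not in the same way among the control livers, other measures moved with *Cyp2b10* and *Gadd45b*. The TMM factor was 0.961 and 0.955 in MI-883-treated replicates 2 and 4, where both genes were highest, 1.03 in replicates 1 and 5, and 1.10 in replicate 3, where both were lowest. The hepatocyte markers summed to 79912 and 76166 CPM in treated replicates 2 and 4, to 72836 and 69313 CPM in replicates 1 and 5, and to 67489 CPM in replicate 3. The bile duct markers summed to 150 and 190 CPM in treated replicates 1 and 3 and to between 35.1 and 52.7 CPM in the other treated livers. Control replicate 2, the highest control liver for both genes, had a TMM factor of 1.01, the lowest hepatocyte sum of the controls (78902 CPM) and a bile duct sum of 72.8 CPM. Control replicate 3, the lowest for both genes, had a TMM factor of 0.971, a hepatocyte sum of 82853 CPM and a bile duct sum of 27.4 CPM. The log2 deviation of *Gadd45b* was 0.71 in control and 0.73 in treated replicate 2, and -0.51 and -0.70 in replicate 3, while it had opposite signs in the 2 groups in replicates 4 and 5. The part of these measures in the relation was not tested. With CPM from total counts in place of TMM, r of *Gadd45b* was 0.89.

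**Figure D3:**
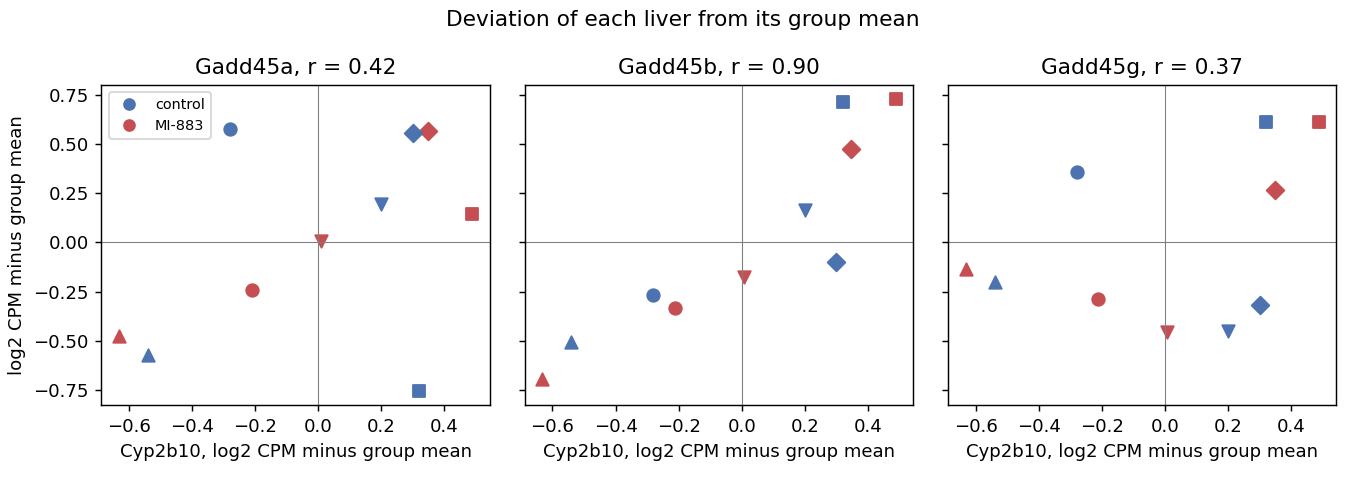
Deviation of log2 CPM from the group mean for each *Gadd45* gene (vertical) against that of *Cyp2b10* (horizontal), for 5 control (blue) and 5 MI-883-treated livers (red), with the replicate as the point's shape. The points rise along a line for *Gadd45b* (r = 0.90) and scatter for *Gadd45a* (r = 0.42) and *Gadd45g* (r = 0.37).

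The genes most like each member from liver to liver were found by the same measure, the Pearson r of deviations over 10 livers, among 11613 genes with a mean of at least 1 CPM. For *Gadd45b* they were *Tent5c* (0.968), *Zfp870* (0.942), *Ei24* (0.916), *Aifm2* (0.915) and *Immt* (0.914), and *Cyp2b10* ranked 11. Unlike *Cyp2b10*, these 5 genes were not called by edgeR. Their log2 fold changes were -0.43, -0.01, -0.22, 0.19 and 0.02 in the same order. For *Gadd45g* they were *Rhebl1* (0.892), *Fmo5* (0.877), *Nmral1* (0.874), *Mphosph8* (0.871) and *Plin5* (0.870), and for *Gadd45a* they were *Coq2* (0.956), *Ist1* (0.930), *Tdrkh* (0.898), *Polr1e* (0.897) and *Zfp383* (0.889). No gene stood in more than 1 of these lists of 5. Between members, r was 0.656 for *Gadd45b* and *Gadd45g*, 0.163 for *Gadd45a* and *Gadd45b*, and -0.018 for *Gadd45a* and *Gadd45g*. These values are a description, since the highest of many correlations over 10 livers that share a scaling are high without any test.

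Genes of Gadd45 partners and effectors were counted in the same fit. Of 15 such genes, 14 were tested and 0 were called by edgeR, against 1.03% of all genes, and 1 by DESeq2, against 3.50% of all genes, so that these counts are near the background. The median log2 fold change was 0.04 against 0.00451 over all tested genes. *Map3k4*, the p38 and JNK kinase activated by Gadd45 proteins, had a log2 fold change of -0.02 (standard error 0.0763). *Map2k7*, the JNK kinase bound by Gadd45b, had one of 0.02 (standard error 0.0809), and the sign of both changed under other settings. For *Gadd45gip1*, which encodes a protein that binds the Gadd45 proteins, it was -0.21 (standard error 0.128). For *Tdg*, a DNA glycosylase of demethylation, it was 0.22 (standard error 0.0916). *Nr1i3*, the mouse gene of CAR, counted here in animals humanized for CAR, was measured at 7.48 ± 1.64 and 6.67 ± 1.38 CPM. Reads were aligned to the mouse genome, so that these counts cannot be taken as the level of human CAR RNA. Among the cell cycle partners, *Ccnb1*, the gene of cyclin B1, was measured at 0.390 ± 0.261 and 1.24 ± 0.639 CPM, and its log2 fold change was 1.62 (edgeR adjusted P = 0.139, DESeq2 0.0293). *Cdk1* had a log2 fold change of 0.66 (adjusted P = 0.306) and *Cdkn1a*, the gene of p21, one of 0.24 (adjusted P = 0.808, both from edgeR).

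**Figure D4:**
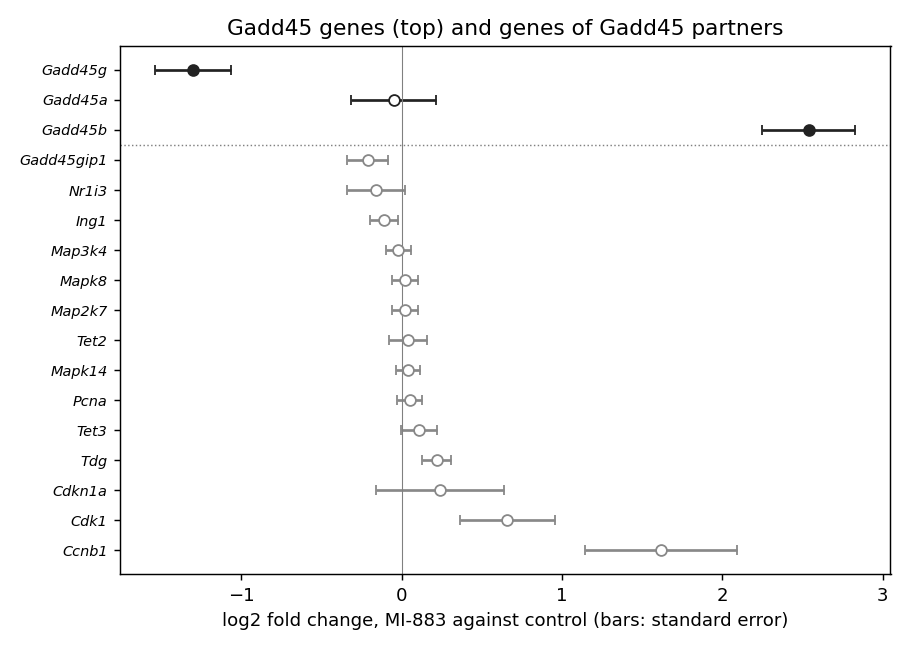
Log2 fold change between MI-883-treated and control livers with its standard error for the 3 *Gadd45* genes (top) and 14 tested genes of Gadd45 partners and effectors. Filled points have an adjusted P under 0.05 from edgeR, which holds for *Gadd45b* at 2.54 and *Gadd45g* at -1.30, and the partners lie between -0.21 and 1.62 with open points.

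Lists of genes that share an inducer with a *Gadd45* gene were counted in the same fit, against 1.03% of all genes called. Among 24 p53 target genes, the group to which *Gadd45a* belongs, 1 was called higher and 0 lower, with a median log2 fold change of -0.02. The called gene was *Gtse1*, a mitotic gene that restrains p53, at 1.18 ± 0.404 and 2.57 ± 0.426 CPM (adjusted P = 0.041 from edgeR). Leaving out any liver other than control replicates 1 and 3 and MI-883 replicate 1 ended its call (7 of 10 fits, adjusted P up to 0.118). *Ei24*, which is also among the genes most like *Gadd45b* from liver to liver, was at 225 ± 9.95 and 194 ± 11.1 CPM without overlap (adjusted P = 0.145 from edgeR and 0.0168 from DESeq2).

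Among 19 immediate early and NF-kB target genes, the group to which *Gadd45b* belongs, 0 were called higher and 1 lower, with a median log2 fold change of -0.04. The called gene was *Ier2*, an immediate early gene, at 26.3 ± 2.67 and 18.6 ± 2.66 CPM with overlap (adjusted P = 0.0348 from edgeR). Leaving out any liver other than control replicates 1 and 2 and MI-883 replicate 4 ended its call (7 of 10 fits, adjusted P up to 0.106). *Egr1* went the other way, at 5.36 ± 1.12 and 8.42 ± 2.05 CPM with overlap (adjusted P = 0.129 from edgeR and 0.0289 from DESeq2).

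Among 18 genes of the integrated stress response, which can induce *Gadd45a*, 16 were tested, 1 was called higher and 0 lower, with a median log2 fold change of 0.11. This was *Asns*, the asparagine synthetase, at 0.906 ± 0.297 and 3.69 ± 2.29 CPM with overlap (adjusted P = 0.0396 from edgeR). Leaving out any liver other than MI-883 replicates 1 and 3 ended its call (8 of 10 fits, adjusted P up to 0.115). Among 16 genes of fasting and glucocorticoid response, 1 was called higher and 0 lower, with a median of -0.10. This was *Pdk4*, the kinase that inhibits pyruvate dehydrogenase, at 13.7 ± 4.72 and 33.3 ± 6.76 CPM (adjusted P = 0.0198 from edgeR). Its adjusted P was 0.0624 without control replicate 5 and 0.0627 without MI-883 replicate 5.

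Most CAR-responsive genes rose. Of 13 such genes, *Cyp2b10* included, 8 were called higher and 0 lower, with a median log2 fold change of 1.02. Over all tested genes, 0.764% were called higher. The called CAR-responsive genes were *Cyp2b10*, *Cyp2c55*, *Cyp2c29*, *Cyp2c37*, *Cyp1a2*, *Gstm3*, *Ces2a* and *Abcc4*. They encode cytochromes P450, a glutathione transferase, a carboxylesterase and an efflux transporter. Their log2 fold changes lay between 0.98 for *Ces2a* and 4.80 for *Cyp2b10* (standard error 0.247), and that of *Gadd45b* lay between those of *Abcc4* (2.45) and *Cyp2c55* (3.20). The rest of the list was not called by edgeR. Log2 fold changes were negative for *Cyp2b9* (-1.18) and *Cyp2b13* (-0.10) and positive for *Aldh1a1* (0.56), *Por* (0.43) and *Aldh1a7* (0.34). CAR targets were picked for a known response to CAR activators, and their rise in these libraries was known when the list was written.

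Genes of growth and survival were counted beside *Gadd45b*. Of 8 such genes, 7 were tested and 0 were called by edgeR or DESeq2, against 1.03% and 3.50% of all genes, with a median log2 fold change of 0.07. *Mki67* and *Foxm1*, a marker and a transcription factor of proliferation, had log2 fold changes of 0.84 and 0.96 (adjusted P = 0.171 and 0.169 from edgeR). *Meg3* was not analysed here. With DESeq2, the calls within the family stayed 2 of 3, with an adjusted P of 1.95e-17 for *Gadd45b*, 6.96e-06 for *Gadd45g* and 0.963 for *Gadd45a*.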

How the data were processed

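Liver RNA of 5 control and 5 MI-883-treated mice was sequenced as paired-end reads on a NovaSeq6000. The authors used STAR for alignment to mm10 and featureCounts for counting, and deposited raw counts per Entrez gene without normalization. The submitters' processing notes also name fastp 0.23.0. The versions of STAR and featureCounts, the annotation and the strand setting are not given in the sources used here. Of 16647 listed genes, 16644 were matched to RefSeq symbols of GRCm38.

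A gene was tested if its total over the 10 livers reached 60 counts, which is a reading of the filter in the study's methods. The methods ask for at least 60 counts in all samples. Read as 60 counts in every liver, the filter tests 9959 genes and leaves out *Gadd45b*. The test was the quasi-likelihood test of edgeR 4.0.16 in R 4.3.3 with TMM scaling and no covariate. The threshold for the Benjamini-Hochberg adjusted P was 0.05. Log2 CPM used a prior count of 2. The relation to *Cyp2b10* was tested with 100000 permutations within groups. Exon lengths are merged exons of GENCODE M21. Library totals lay between 23513665 and 36221514 counts, and the counting error was part of the fit. Alternatives were the Wald test of DESeq2 1.42.0, other scalings and filters, the replicate number as a block, and leaving out each liver. The comparisons of the groups with edgeR and DESeq2 were tested on simulated counts. The members, lists, motifs and tests were chosen with earlier results of these data known. From each list described every gene called by edgeR was named. *Ei24* and *Egr1*, which DESeq2 alone called, were named from longer lists, and from lists of at most 15 genes others were named too. The 5 genes most like each member were named by r. The result of 1 further gene list is not reported here.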

Additional observations from a re-analysis of the deposited data

How the results depend on the processing

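*Gadd45b* and *Cyp2b10* kept their direction and call under every setting that tested them, with log2 fold changes of 2.33 to 2.78 and 4.67 to 4.93 over the fits that left out 1 liver. A minimum of 60 counts in every liver did not test *Gadd45b*. *Gadd45g* kept its call under 7 of 7 other settings and lost it in the 2 fits named above, with log2 fold changes of -1.48 to -1.11 over the 10 fits. *Gadd45a* was never called, and its sign changed with the replicate block (0.00866) and in 4 of 10 fits without 1 liver (range -0.212 to 0.104, among them 0.0962, 0.019 and 0.0591). The sign of *Map3k4* changed with total counts (0.0229) and without control replicate 3 (0.0184) or MI-883 replicate 1 (0.0203; range -0.0585 to 0.0203 over the fits without 1 liver), and that of *Map2k7* without control replicate 4 (-0.0129) or MI-883 replicate 5 (-0.0217; range -0.0217 to 0.0714).

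The number of called genes over all was 136. It was 463 with DESeq2, 89 with the replicate block and 62 (without MI-883 replicate 5) to 208 (without control replicate 1) when 1 liver was left out, and the cause was not tested. It moved by over 1.5 times without any control liver and without MI-883 replicate 2 (70) or 5. Over the most variable genes, the correlation of deviations between livers of equal replicate number lay between -0.249 and 0.494 over 5 pairs. In this measure, 1 control liver correlated best with its own number. For *Cyp2b10*, deviations had the same sign in both groups at every replicate number, such as 0.32 and 0.48 in replicate 2. A factor shared by equal replicate numbers was not tested. With the replicate number as a block, the adjusted P was 2.88e-05 for *Gadd45b* and 9.83e-09 for *Cyp2b10* (edgeR). With the block, *Gtse1* (adjusted P = 0.0786), *Asns* (0.0545), *Ier2* (0.0821) and *Pdk4* (0.0545, all edgeR) lost their calls. The within-group r with *Cyp2b10* was 0.25 to 0.75 for *Gadd45a*, 0.86 to 0.97 for *Gadd45b* and 0.16 to 0.49 for *Gadd45g* without 1 liver. Among the members, depth limits *Gadd45b* in control livers most, with 54 counts in replicate 3.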
